A study of Homo sapiens with 4 samples.

Results

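Kinesins are motor proteins that burn ATP to walk along microtubules or to take them apart. One set builds the mitotic spindle, moves chromosomes and cuts the daughter cells apart, and its genes are switched on late in the cell cycle. Another set hauls vesicles, organelles and ciliary cargo through the cytoplasm at all times and is known best from neurons. Every row of the gene table whose symbol is KIF with a number and at most one letter A, B or C, or KIFC1, KIFC2 or KIFC3, was taken as a member, which gave 42 of 57905 gene identifiers. By known role they were sorted into 14 mitotic kinesins, 15 transport kinesins and 13 others, the last being ciliary, microtubule-regulating and little-studied members. The rule for members uses symbols and no measured value, though the family was picked for description with earlier results of these libraries known.

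Polyadenylated RNA was sequenced from 4 libraries labelled as MG63, a line grown from a human bone tumour. Of these, 2 came from cells given a control siRNA (siNC) and 2 from cells given an siRNA against the transcription factor KLF11 (siKLF11), all cultured in serum-containing medium and harvested 48 hours after transfection. The labels name no siRNA sequence. Whether the replicates were separate cultures is not stated, and the p-values then reflect no more than library-to-library spread, possibly technical. KLF11 itself measured 12.3 and 12.4 FPKM with siNC and 5.49 and 6.74 FPKM with siKLF11, so the transcript was lowered but still present.

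FPKM is a level per length of transcript and per library size, with the read depth unknown here. Summed FPKM was 577849 and 582522 in the siNC and 591043 and 604498 in the siKLF11 libraries. Of 12 osteoblast and mesenchymal markers, only 5 averaged 1 FPKM or more (COL1A1, COL1A2, ALPL, THY1 and TWIST1), and RUNX2 and SP7, the defining osteoblast factors, stayed at or below 0.65 FPKM in every library. All 8 pluripotency markers and all 8 early endoderm markers passed that level, led by CER1 at 4430.3 and 4406 FPKM with siNC and 958 and 2574 FPKM with siKLF11. Their summed levels were 1449 and 1466 FPKM (pluripotency) and 5285 and 5256 FPKM (endoderm) with siNC, against 2867 and 2377 FPKM and 1340.5 and 3142 FPKM with siKLF11. POU5F1 gave 186 and 177 FPKM of the pluripotency sums with siNC and 1364 and 1068 FPKM with siKLF11. Of 8 pluripotency markers, 6 were called higher with siKLF11 (limma, adjusted p under 0.05) and LIN28A lower. Of 8 endoderm markers, EOMES was called higher and GATA4, FOXA2, SOX17 and GATA6 lower, beside 13.5% of all tested genes higher and 21.7% lower. Of the osteoblast and mesenchymal markers, COL1A2 had 133 and 126 FPKM with siNC and 136 and 115 FPKM with siKLF11. ALPL had 101 and 88.95 against 106 and 79.25 FPKM, and THY1 9.95 and 7.64 against 65.3 and 68.3 FPKM. The pluripotency and endoderm levels and the low RUNX2 and SP7 thus go against the label, though COL1A2, ALPL and THY1 were expressed. The part of the marker shifts in the kinesin results was not tested. In bulk RNA, fewer cells of a type and less RNA per cell cannot be told apart.

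Of the 42 kinesins, 34 averaged at least 1 FPKM over the 4 libraries and were tested by limma on log2(FPKM + 1) within the fit over all 15320 such genes, with a Benjamini-Hochberg adjusted p under 0.05 as a call. With siKLF11, 8 kinesins were called higher and 8 lower, where 13.5% of all tested genes were called higher and 21.7% lower (35.2% in either direction). Of 12 tested mitotic kinesins 7 rose and 0 fell (0 at an unadjusted p under 0.05 in limma, the one tool run), and of 14 tested transport kinesins 1 rose and 5 fell. Of 8 tested others 0 rose (1 at an unadjusted p under 0.05) and 3 fell.

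Medians of the log2 change were 0.51 for mitotic, -0.32 for transport and -0.27 for other kinesins, beside -0.11 for all tested genes. When libraries were scaled by median of ratios, the median of all genes became -0.01 and those of the classes 0.62, -0.21 and -0.17. Under that scaling 17.8% of all tested genes were called higher and 17.4% lower, and 12 kinesins were called higher and 4 lower. The mitotic changes were also the more uniform, with an SD over members of 0.224 log2 units against 0.614 for transport kinesins. No test was made of one class against the other, since the classes were drawn up with earlier results of these libraries known.

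**Figure D1:**
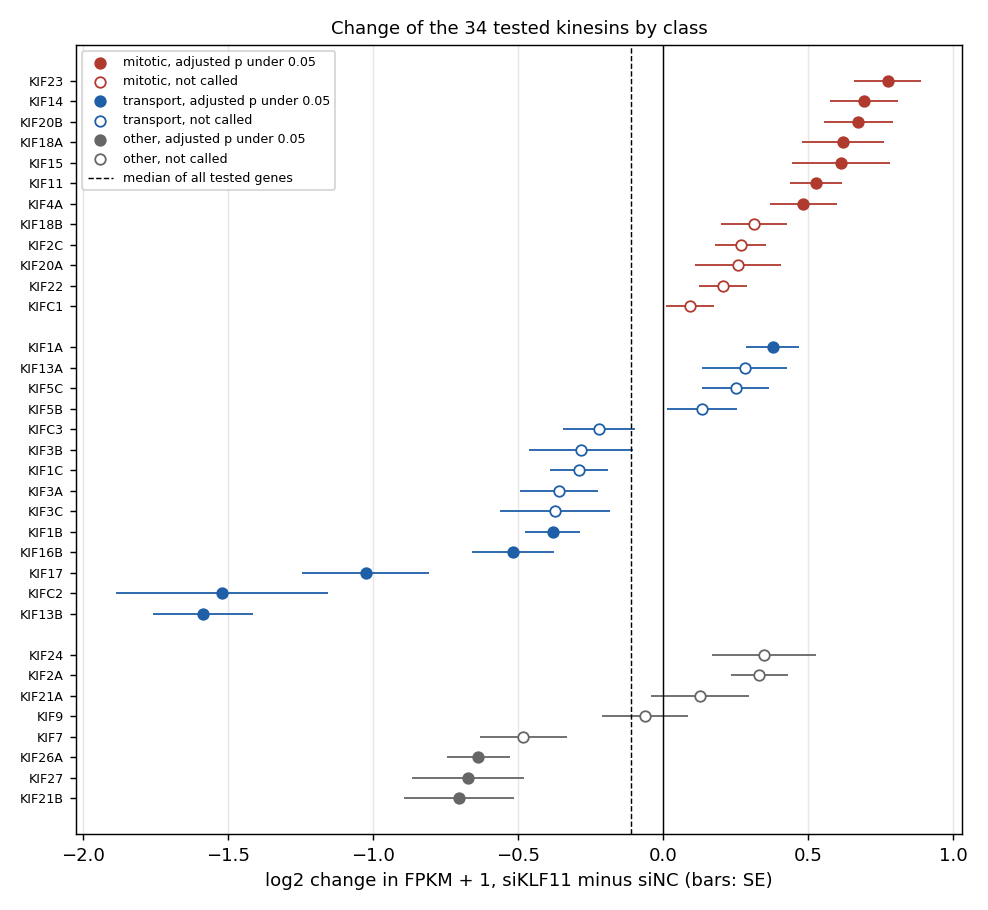
Log2 change in FPKM + 1 (siKLF11 minus siNC, x axis) of the 34 tested kinesins, with bars for the SE, filled points for adjusted p under 0.05 and a dashed line at the median of all tested genes (-0.11). All 12 mitotic points lie right of 0, from 0.09 to 0.77, while 10 of 14 transport points lie left of 0, down to -1.59.

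The mitotic motors that act in cytokinesis and at the spindle midzone are described first. KIF23, the motor subunit of the centralspindlin complex that marks where the cell will divide, measured 23.9 and 25.2 FPKM with siNC and 46.8 and 39.1 FPKM with siKLF11. Both siKLF11 libraries lay far above both controls, and the mean rose 1.75-fold (log2 change 0.77, SE 0.117, adjusted p = 0.00949, limma). KIF14, which anchors citron kinase at the midbody, went from 6.70 and 7.04 to 12.1 and 11.4 FPKM (1.71-fold, log2 change 0.69, SE 0.118, adjusted p = 0.0126, limma). KIF20B, a midbody motor needed late in abscission, went from 12.6 and 13.5 to 23.0 and 19.8 FPKM (1.64-fold, adjusted p = 0.0137, limma). Its relative KIF20A, which carries the chromosomal passenger complex to the midzone, had 44.4 and 38.4 FPKM with siNC and 56.1 and 43.8 FPKM with siKLF11. There siKLF11 replicate 2 fell between the controls and the change did not pass (adjusted p = 0.228). KIF4A, which sets the length of midzone microtubules and binds condensed chromosomes, rose from 14.01 and 15.3 to 22.2 and 19.6 FPKM (1.43-fold, adjusted p = 0.0287, limma). Its intronless copy KIF4B was listed at 0.04 FPKM at most, and the level of KIF4A is uncertain to the extent that reads of the copies were shared.

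The motors that push spindle poles apart rose together. KIF11, the bipolar motor that drug developers know as Eg5, had 21.3 and 22.0 FPKM with siNC and 32.1 and 31.1 FPKM with siKLF11, a tight pair in each group (1.46-fold, log2 change 0.53, SE 0.0896, adjusted p = 0.0125, limma). KIF15, which can stand in for KIF11 at the spindle, went from 5.87 and 7.39 to 11.8 and 9.59 FPKM (1.61-fold, adjusted p = 0.0413, limma). Of the motors that work on chromosomes, KIF18A, which damps chromosome oscillations, rose from 5.47 and 5.87 to 10.1 and 8.48 FPKM (1.64-fold, adjusted p = 0.0258, limma).

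Its relative KIF18B, a depolymerase of astral microtubules, had 12.4 and 11.1 FPKM with siNC and 15.2 and 14.6 FPKM with siKLF11 (adjusted p = 0.0829). KIF2C, also known as MCAK, which corrects wrong kinetochore attachments, had 27.7 and 26.7 against 32.9 and 33.1 FPKM (adjusted p = 0.0647). KIF22, the chromosome arm motor also called Kid, had 48.5 and 45.7 against 54.5 and 54.5 FPKM (adjusted p = 0.109). These 3 did not pass in FPKM as deposited, though their groups did not overlap, and each passed with median-of-ratios scaling (adjusted p from 0.0246 to 0.0357). KIFC1, the minus-end motor that clusters centrosomes, was the flattest at 37.0 and 36.8 against 39.0 and 39.9 FPKM (1.07-fold, adjusted p = 0.419, limma).

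Both siKLF11 libraries lay above both controls for 11 of 12 tested mitotic kinesins. Over all tested genes, 28.9% were separated that way, 44.5% with siKLF11 lower and 73.4% in either direction. In each of the 7 that rose, siKLF11 replicate 1 lay further from the controls than replicate 2. The 4 mitotic kinesins of highest mean level in the controls (KIF22, KIF20A, KIFC1 and KIF2C) were not among the 7.

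**Figure D2:**
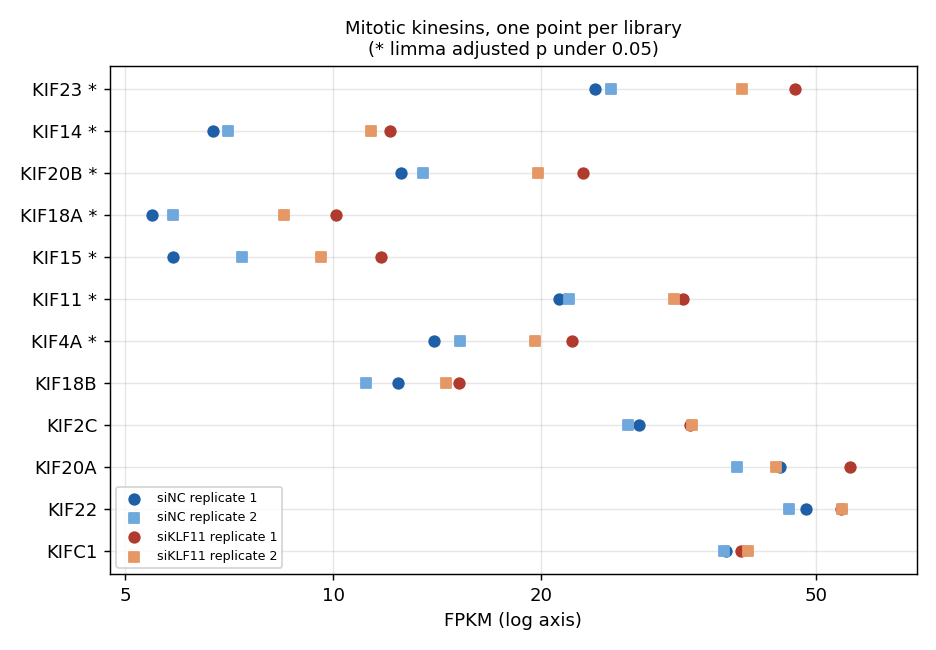
FPKM on a log axis of the 12 tested mitotic kinesins, 1 point per library, with blue for siNC, red and orange for siKLF11, circles for replicate 1 and squares for replicate 2, and a star for an adjusted p under 0.05. The coloured groups are apart for every gene but KIF20A, where siKLF11 replicate 2 (43.8 FPKM) sits below siNC replicate 1 (44.4 FPKM).

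Proteins that work beside the mitotic motors were read from a list of 27 genes, of which 14 rose and 0 fell (1 lower at an unadjusted p under 0.05 in limma), with a median log2 change of 0.32, beside 13.5% of all tested genes higher, 21.7% lower and a median of -0.11. CENPE, a kinesin of the kinetochore that carries no KIF symbol and so was no member, rose from 11.9 and 12.2 to 25.6 and 18.9 FPKM (1.85-fold, adjusted p = 0.0176, limma). TPX2, which brings KIF11 and KIF15 to spindle microtubules, rose from 49.4 and 49.6 to 71.6 and 65.8 FPKM (limma, adjusted p = 0.0156). Direct partners did not all follow their motors. RACGAP1, the other subunit of centralspindlin beside KIF23, had 37.1 and 40.8 against 44.6 and 43.3 FPKM (adjusted p = 0.202). CIT, the citron kinase that KIF14 anchors, had 12.9 and 14.1 against 10.6 and 10.6 FPKM (adjusted p = 0.0739), and PRC1, the microtubule bundler that recruits KIF4A, had 43.5 and 48.2 against 37.98 and 54.5 FPKM (adjusted p = 0.978). Of 6 proliferation markers 5 rose (PCNA, TOP2A, CCNB2, CCNA2 and MCM2), with sums of 265 and 271 FPKM in siNC and 456 and 427 FPKM in siKLF11 libraries, and MKI67 did not pass (28.3 and 21.7 against 25.5 and 28.5 FPKM, adjusted p = 0.584). The part of the cell cycle in the mitotic kinesin changes was not tested.

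Because the mitotic genes moved together, their promoters were set beside those of the other kinesins. RefSeq windows of build GRCh38.p14, running from 250 bases before to 50 after the annotated start, were matched by symbol for 34 of 42 members, using the first window listed for each gene. KIF5A, KIF13B, KIF19, KIF21B, KIF26B, KIF27, KIFC2 and KIFC3 had no entry. The motif counts therefore leave out 4 of the 8 kinesins called lower (KIF13B, KIFC2, KIF21B and KIF27). The 3 motifs CHR, NF-Y box and GC box were searched on both strands: TTTGAA, the cell cycle genes homology region (CHR) through which the MuvB complexes act, CCAAT, the box bound by NF-Y, and GGGCGG, a GC box of the kind that SP and KLF proteins bind. Matches of different motifs overlapped in 0 cases in the kinesin windows. A match describes letters only, not a bound site. CHR letters here mean TTTGAA alone, and other spellings of the element were not searched. The FPKM table itself was made on another build, hg19, so these coordinates are those of the RefSeq windows.

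CHR letters (TTTGAA only) were present in 10 of 14 mitotic windows, 1 of 11 transport windows and 0 of 9 other windows, beside 15.4% of all 27305 windows. They were present in each of the 7 mitotic kinesins that rose and in 3 of the 7 that were not called or not tested, namely KIF18B, KIFC1 and KIF4B. In the latter set KIF2B and KIF4B were the untested genes. This division depends on the scaling. With median-of-ratios scaling KIF18B, KIF2C and KIF22 were also called higher, and the searched windows of KIF2C and KIF22 hold no TTTGAA. The NF-Y box was present in 11 of 14 mitotic, 3 of 11 transport and 3 of 9 other windows, against 35.7% of all windows, and both motifs stood together in 9 of 14 mitotic windows against 6.08% of all. The GC box did not divide the classes in this way, with 12 of 14, 9 of 11 and 9 of 9 windows against 44.6% of all. Base composition differs among these sets: the median GC share was 58.3% over all windows, higher in mitotic windows, and 69.7% and 68.0% in transport and other windows.

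The stretch from 110 bases before to 30 after the start is shown here, 5′ to 3′ on the gene's strand, with CHR and NF-Y box letters in capitals on either strand (TTCAAA and ATTGG are the opposite-strand forms). The first 5 are mitotic kinesins that rose and carry both motifs close to the start. KIF20A is a mitotic kinesin with NF-Y boxes, no TTTGAA and no call. KIF18B and KIFC1, whose sequences are not shown, are mitotic kinesins that hold both motifs and were not called. KIF1B, also not shown, is a transport kinesin that fell and holds NF-Y boxes. KIF17 and KIF16B are transport kinesins that fell and hold neither motif. They lie at chr15:69414239-69414378 (KIF23, plus strand), chr1:200620722-200620861 (KIF14, minus), chr10:92593020-92593159 (KIF11, plus), chr11:28108127-28108266 (KIF18A, minus), chrX:70289994-70290133 (KIF4A, plus), chr5:138179002-138179141 (KIF20A, plus), chr1:20717978-20718117 (KIF17, minus) and chr20:16573419-16573558 (KIF16B, minus).
KIF23: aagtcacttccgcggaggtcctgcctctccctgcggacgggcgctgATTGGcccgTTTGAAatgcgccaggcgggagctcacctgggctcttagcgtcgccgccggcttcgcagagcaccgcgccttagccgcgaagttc
KIF14: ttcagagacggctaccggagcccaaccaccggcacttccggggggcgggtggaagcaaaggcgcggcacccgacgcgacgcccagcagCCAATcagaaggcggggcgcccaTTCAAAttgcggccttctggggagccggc
KIF11: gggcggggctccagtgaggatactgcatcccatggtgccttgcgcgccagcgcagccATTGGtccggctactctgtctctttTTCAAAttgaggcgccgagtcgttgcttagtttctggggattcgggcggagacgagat
KIF18A: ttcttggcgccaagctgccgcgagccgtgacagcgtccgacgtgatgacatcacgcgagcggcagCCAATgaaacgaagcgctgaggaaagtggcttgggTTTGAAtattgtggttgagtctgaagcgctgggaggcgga
KIF4A: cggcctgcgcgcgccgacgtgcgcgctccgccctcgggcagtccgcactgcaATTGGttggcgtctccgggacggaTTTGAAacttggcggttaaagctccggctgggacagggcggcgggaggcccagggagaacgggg
KIF20A: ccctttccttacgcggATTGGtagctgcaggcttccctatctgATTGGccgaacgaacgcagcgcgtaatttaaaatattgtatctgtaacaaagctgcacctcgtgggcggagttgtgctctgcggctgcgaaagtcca
KIF17: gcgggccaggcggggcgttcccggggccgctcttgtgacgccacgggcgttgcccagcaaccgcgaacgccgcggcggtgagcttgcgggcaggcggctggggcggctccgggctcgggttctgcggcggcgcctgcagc
KIF16B: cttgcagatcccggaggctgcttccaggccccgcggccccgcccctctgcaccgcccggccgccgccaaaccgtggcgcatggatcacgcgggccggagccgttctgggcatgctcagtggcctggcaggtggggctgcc

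In KIF23 the NF-Y box and the CHR letters began 64 and 55 bases before the start. In the 7 that rose, CHR matches began from position -55 to 31 and NF-Y boxes from -131 to -22, with KIF15 lacking the box and KIF20B, whose sequence is not shown, holding the CHR letters as a tandem pair at 25 and 31 bases after the start. The single transport window with CHR letters was that of KIF5B, 140 bases upstream, and KIF5B was not called.

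**Figure D3:**
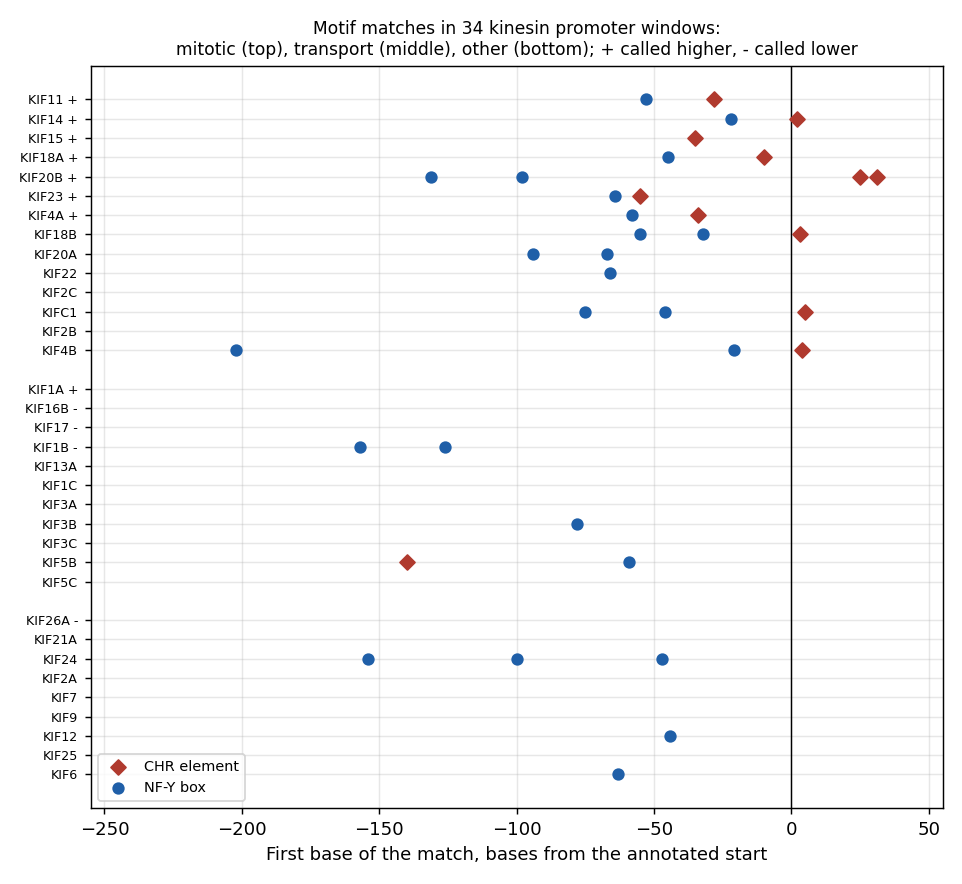
Distance from the annotated start, in bases, of each CHR match (TTTGAA only, red diamonds) and NF-Y box (blue circles) in 34 kinesin promoter windows. Each gene has 1 row, with plus and minus signs for genes called higher or lower. These CHR matches fall in 10 of 14 mitotic rows, 1 of 11 transport rows and 0 of 9 other rows.

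Transport kinesins showed a wider scatter. KIF13B, a plus-end motor that carries membrane cargo and binds the scaffold DLG, had the lowest log2 change of the 34 tested members and fell from 10.0 and 10.9 FPKM with siNC to 2.38 and 3.30 FPKM with siKLF11 (3.68-fold lower, log2 change -1.59, SE 0.172, adjusted p = 0.005, limma). Its close relative KIF13A, a motor of recycling endosomes, had 9.47 and 8.84 against 12.7 and 10.1 FPKM and was not called (adjusted p = 0.192). The pair thus changed places: KIF13B gave 51.4% and 55.2% of the summed KIF13 FPKM in the controls and 15.8% and 24.6% with siKLF11. The shares are given as a description and were not tested.

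KIFC2, a minus-end motor described in axons and dendrites, fell from 39.7 and 36.8 to 8.20 and 19.3 FPKM (2.78-fold lower, log2 change -1.52, SE 0.366, adjusted p = 0.0297, limma). Its siKLF11 libraries differed from each other more than those of any other called kinesin, with replicate 1 at the lower level. The log2 change was -0.95 without siKLF11 replicate 1 and -2.09 without replicate 2. KIFC2 ranked the fifth of the 42 kinesins by mean level in the controls and 19 with siKLF11. The related KIFC3, a motor of epithelial junctions and apical transport, had 23.4 and 24.2 against 18.3 and 22.4 FPKM (adjusted p = 0.221). Of 6 epithelial markers, EPCAM, KRT19, KRT8, CDH1 and KRT18 were called lower and CLDN6 was not called, beside 21.7% of all tested genes lower. With median-of-ratios scaling 4 of these markers were called lower. The part of epithelial expression in the values of KIFC3 and KIF12 was not tested.

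KIF17, which carries cargo into dendrites and cilia, fell from 2.19 and 3.07 to 0.90 and 0.65 FPKM (3.39-fold lower, adjusted p = 0.0219, limma). At such low levels the log2 change of -1.03 understates the fall in FPKM. KIF16B, an early endosome motor that binds phosphoinositides, fell from 5.97 and 6.41 to 3.82 and 4.23 FPKM (1.54-fold lower, log2 change -0.52, adjusted p = 0.0415, limma).

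The KIF1 genes, motors of synaptic vesicle precursors, mitochondria and lysosomes, split. KIF1A, best known as the axonal motor of synaptic vesicle precursors, was the one transport kinesin that rose, from 39.4 and 36.2 to 47.9 and 50.9 FPKM (1.31-fold, log2 change 0.38, SE 0.0926, adjusted p = 0.0311, limma). KIF1B, which moves mitochondria and vesicles, fell from 33.5 and 32.5 to 24.1 and 26.3 FPKM (limma, log2 change -0.38, SE 0.0947, adjusted p = 0.0324), and KIF1C, a widely expressed vesicle motor, had 57.1 and 50.5 against 42.5 and 45.04 FPKM (adjusted p = 0.0745). KIF1C was the most abundant kinesin in the controls. KIF1A supplied 30.3% and 30.4% of the summed KIF1 FPKM with siNC and 41.9% and 41.7% with siKLF11, while the sum itself ran from 119 to 130 FPKM with siNC and was 114 and 122 FPKM with siKLF11.

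**Figure D4:**
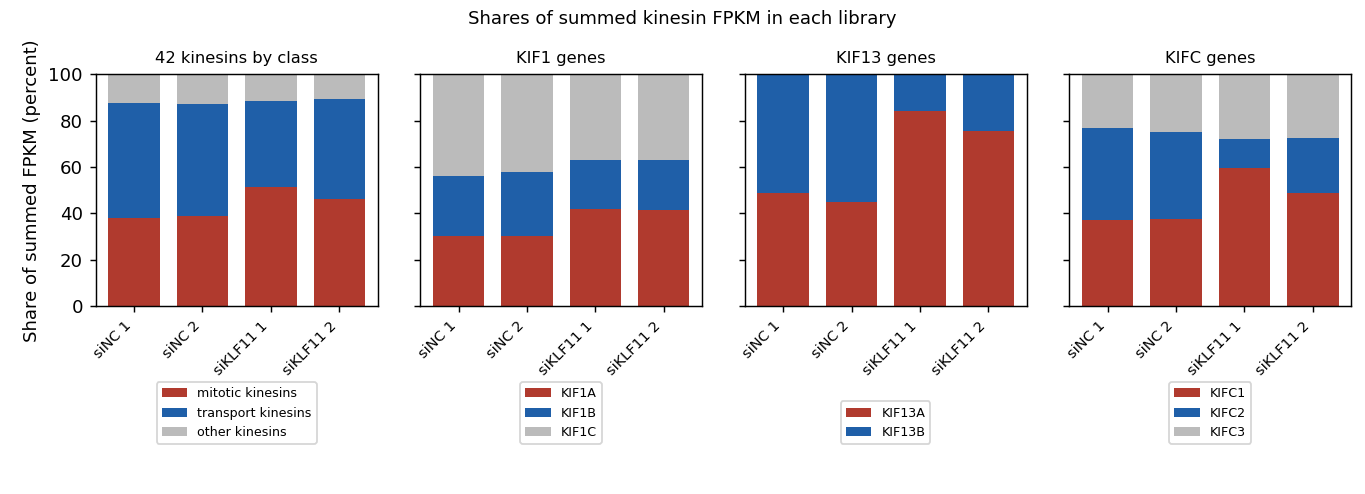
Share of summed FPKM (percent, y axis) in each of the 4 libraries, for the 42 kinesins by class and for the members of the KIF1, KIF13 and KIFC groups. The mitotic share of all kinesin FPKM was 38.1% and 39.0% with siNC and 51.3% and 46.3% with siKLF11, and KIF13A and KIFC1 hold the largest shares of their groups in both siKLF11 libraries.

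The conventional kinesin heavy chains, which haul organelles and mRNA with the help of light chains, were not called. KIF5B, the ubiquitous form, had 48.5 and 50.4 against 49.0 and 60.4 FPKM, with siKLF11 replicate 1 between the controls (adjusted p = 0.426). KIF5C had 14.7 and 14.8 against 16.5 and 19.1 FPKM (adjusted p = 0.149), and the neuronal KIF5A stayed under the filter at 0.43 and 0.35 against 0.72 and 0.58 FPKM. KIF5B held from 74.0% to 76.9% of the summed KIF5 FPKM in every library.

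Light chains were among the genes that fell. KLC1, a widely expressed light chain, went from 81.3 and 80.4 to 59.0 and 61.1 FPKM (limma, log2 change -0.42, adjusted p = 0.0156), and KLC2 from 21.7 and 20.3 to 10.8 and 13.3 FPKM (limma, log2 change -0.76, adjusted p = 0.0131). In a list of 25 cargo adaptors and light chains, 1 of 23 tested members rose and 8 fell, where 13.5% of all tested genes rose and 21.7% fell. The list's median log2 change was -0.34, beside -0.11 for all genes. By median of ratios, 6 were called lower and 1 higher, with a median of -0.23. MAPK8IP3, the axonal adaptor JIP3, fell from 27.1 and 26.3 to 11.3 and 16.5 FPKM (limma, adjusted p = 0.0186).

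The KIF3 genes encode the motors of cilium building. KIF3A, their common subunit, had 8.61 and 7.45 against 6.08 and 5.98 FPKM (adjusted p = 0.0931). KIF3B had 15.1 and 12.8 against 9.58 and 13.1 FPKM (adjusted p = 0.266), and KIF3C, the form of neurons, 27.3 and 20.1 against 15.8 and 20.2 FPKM (adjusted p = 0.18). The groups overlapped for KIF3B and KIF3C, but not for KIF3A. KIFAP3, the cargo-binding subunit that joins them, fell from 7.47 and 7.50 to 5.42 and 5.02 FPKM (limma, log2 change -0.45, adjusted p = 0.0475) and was not called when scaled by median of ratios (adjusted p = 0.0981). Of 21 genes of intraflagellar transport, the train that these motors pull along the cilium, 8 fell and WDR35 rose, beside 21.7% and 13.5% of all tested genes, with a median log2 change of -0.44 beside -0.11 for all. With median-of-ratios scaling 5 were called lower and 1 higher (median -0.33). IFT27 went from 26.6 and 27.0 to 14.4 and 15.2 FPKM (limma, adjusted p = 0.0056).

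**Figure D5:**
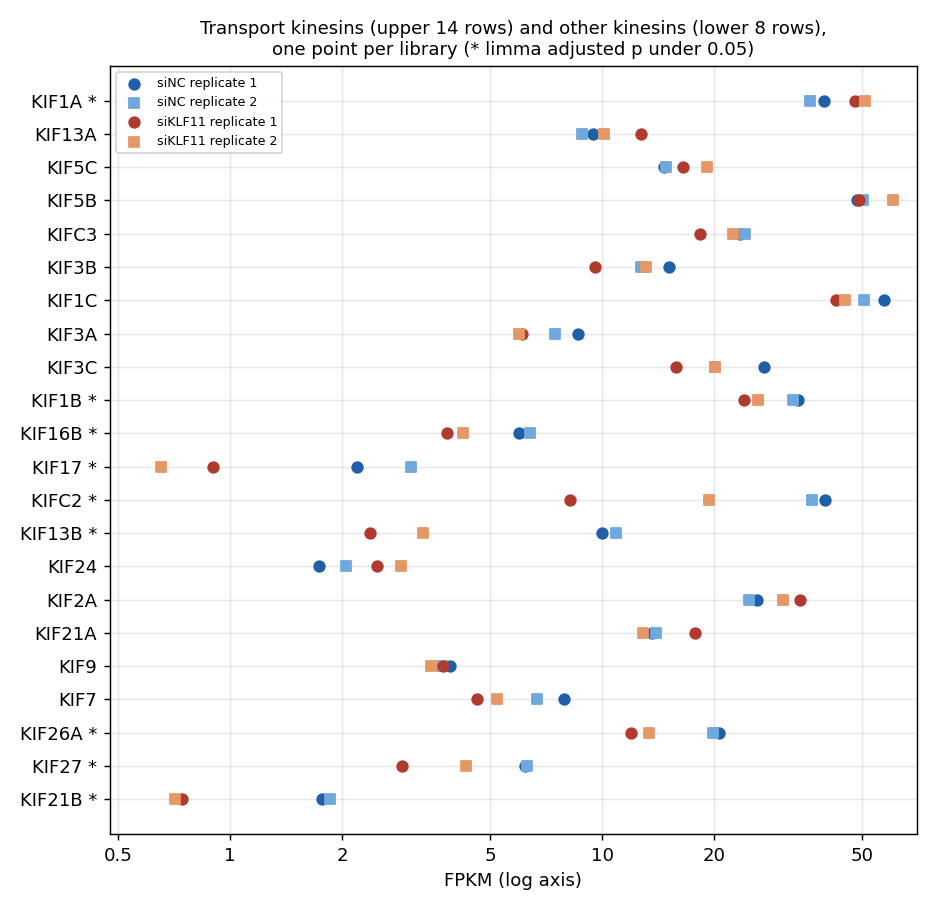
FPKM on a log axis of the 14 tested transport kinesins and, below them, the 8 tested other kinesins, 1 point per library, with colours for siRNA, circles for replicate 1, squares for replicate 2 and a star for an adjusted p under 0.05. KIF13B, KIFC2 and KIF17 have the largest ratios of group means (3.68, 2.78 and 3.39), and the siKLF11 points of KIFC2 (8.20 and 19.3 FPKM) are themselves far apart.

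Among the remaining kinesins, 3 fell. KIF26A, an atypical member without motor activity, went from 20.6 and 19.9 to 12.0 and 13.4 FPKM (1.60-fold lower, log2 change -0.64, SE 0.109, adjusted p = 0.0127, limma). KIF27, a relative of the Hedgehog regulator KIF7 that acts in motile cilia, went from 6.21 and 6.29 to 2.90 and 4.31 FPKM (1.73-fold lower, adjusted p = 0.0476, limma). KIF21B, a neuronal regulator of microtubule growth, went from 1.76 and 1.86 to 0.74 and 0.71 FPKM (2.497-fold lower, adjusted p = 0.0401, limma).

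KIF21A, the broadly expressed partner of KIF21B, had 13.6 and 13.9 against 17.8 and 12.8 FPKM, the siKLF11 libraries lying on either side of the controls (adjusted p = 0.582). KIF2A, a depolymerase that serves both spindle and neurite and was therefore placed in neither class, had 26.1 and 24.8 against 34.01 and 30.6 FPKM and just missed the threshold (1.27-fold, adjusted p = 0.0528, limma). With median-of-ratios scaling its adjusted p was 0.0246. KIF24, which restrains cilium assembly at the mother centriole, had 1.73 and 2.05 against 2.48 and 2.88 FPKM (adjusted p = 0.185). KIF9, a motor of motile cilia, had 3.89 and 3.71 against 3.73 and 3.47 FPKM (adjusted p = 0.769), and reads of its antisense neighbour KIF9-AS1, at 0.91 FPKM or less, cannot be told apart from its own without the strand setting.

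KIF7, which sits at the cilium tip and tunes GLI factors, had 7.88 and 6.69 against 4.62 and 5.23 FPKM (1.48-fold lower, adjusted p = 0.0581, limma). Of 11 tested Hedgehog pathway genes around it 1 rose and 2 fell, shares near the 13.5% and 21.7% of all tested genes. The median log2 change was -0.02, and 0.09 with median-of-ratios scaling. GLI3, which acts mainly as a repressor, rose from 3.53 and 3.34 to 7.12 and 6.79 FPKM (limma, adjusted p = 0.0113), and the ciliary receptor GPR161 and the kinase STK36 fell. GLI1, a target of the pathway, had 0.71 and 0.81 against 1.28 and 2.76 FPKM (adjusted p = 0.106).

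The 8 members under the filter were KIF2B, KIF4B, KIF5A, KIF6, KIF12, KIF19, KIF25 and KIF26B. KIF12, KIF19 and KIF26B were at or near 1 FPKM in the controls only. KIF12, a kinesin of kidney and liver epithelia, had 1.24 and 1.42 against 0.04 and 0.35 FPKM. KIF19, which trims motile cilia, had 1.06 and 0.95 against 0.12 and 0.33 FPKM, and KIF26B, a developmental regulator of adhesion, 1.34 and 1.41 against 0.33 and 0.47 FPKM. With no filter their adjusted p-values were 0.0699, 0.0783 and 0.0768 in limma. KIF6 had 0.72 and 0.71 against 0.75 and 0.51 FPKM, while KIF25, KIF2B and KIF4B stayed at or below 0.09 FPKM. Of 8 motile cilium markers only PIFO averaged 1 FPKM, so the ciliary kinesins KIF6, KIF9, KIF19 and KIF27 were read where FOXJ1, the master factor of such cells, did not exceed 0.57 FPKM. Of 6 tested neuron markers 3 rose (NEFM, SYT1 and MAP2) and 2 fell (TUBB3 and STMN2), beside 13.5% and 21.7% of all tested genes. Sums over 11 markers were 202 and 184 FPKM with siNC and 135 and 134 FPKM with siKLF11. Of these sums TUBB3 alone gave 173 and 159 FPKM with siNC and 79.4 and 95.2 FPKM with siKLF11. DCX, SNAP25 and ELAVL3 did not exceed 0.42 FPKM. The part of neuron-like expression in the values of KIF1A, KIFC2, KIF17 and KIF21B was not tested.

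Each of the 16 kinesin calls was lost when either control library was left out. In those fits limma called 0 of 15320 genes (4461 at an unadjusted p under 0.05 without siNC replicate 1 and 4793 without replicate 2), and each of the 16 kept its sign. Without siKLF11 replicate 1, KIF23, KIF14, KIF20B and KIF11 were called higher, and KIF13B, KIFC2, KIF17 and KIF26A lower. In that fit siKLF11 is 1 library, assumed to vary like the siNC pair, and over the 34 tested kinesins the median SD of log2 values was 0.0618 within siNC and 0.117 within siKLF11. KIF1A was not called when either siKLF11 library was left out (adjusted p = 0.0518 without replicate 1 and 0.0659 without replicate 2). With all libraries kept, no alternative took the call from KIF23, KIF14, KIF11, KIF13B or KIF26A. KIF16B, KIF1B, KIF27 and KIF21B lost theirs with median-of-ratios scaling (adjusted p from 0.0527 to 0.0776). Of the mitotic calls, those of KIF15, KIF18A and KIF4A were lost with no filter and with the replicate block (limma, adjusted p from 0.0522 to 0.114). The KIF20B call was lost with no filter (limma, adjusted p = 0.0514). KIF15 also lost its call without a variance trend and with TPM scaling without mitochondrial genes (limma, adjusted p = 0.053 and 0.051).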

How the data were processed

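The authors deposited FPKM values per gene identifier and library, with 2 decimals and no counts, so depth is unknown. The submitters' processing notes name Trim Galore 0.5.0 and RSEM 1.3.1, with build hg19 (GRCh37). The aligner, annotation and strand setting were not given in the sources used here. Columns were matched to samples by title, with 0 left unmatched. limma 3.58.1 (R 4.3.3, lmFit, then eBayes with trend) was run on log2(FPKM + 1), siKLF11 against siNC without a block, for the 15320 genes with a mean of at least 1 FPKM. Tests were two-sided, with Benjamini-Hochberg adjustment over all of them and a threshold of 0.05. Folds are ratios of mean FPKM, and log2 changes on the log2(FPKM + 1) scale understate those of low genes. The script was tested on simulated data. Within a replicate pair, identical values were found in 0.548% of tested genes at most, and all libraries were kept.

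Members, classes and gene lists were chosen with earlier results of these data known, so classes are given as counts and medians with no test of their own. Every member is named. Of other lists, the text names direct partners, at most the 4 called genes of smallest p, and for marker lists the highest gene and those behind counts of 5 or fewer. SNAP25, DCX, ELAVL3, KIF9-AS1 and FOXJ1 were named after their values were seen. Motifs were searched with Python 3.11.15 and figures drawn with matplotlib 3.10.9. Alternatives were other pseudocounts, filters, scalings and variance models (statmod 1.5.0), the replicate block, each library left out, and other classes for KIF2A, KIF21A and KIF21B. Some genes of the adaptor list that the naming rule selects are not reported here.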

Additional observations from a re-analysis of the deposited data

How the results depend on the processing

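The 2 libraries per group and the unknown depth limit every call. Leaving out 1 library gave 0 to 2291 genes called higher and 0 to 3813 lower, with 0 in both directions without either control. The lone library of a group is then assumed to vary like the other group. It gave 0 to 7 mitotic kinesins called higher, 0 transport kinesins higher and 0 to 5 lower, and 0 to 1 other kinesins higher and 0 to 2 lower. Class medians then ran from 0.44 to 0.56 (mitotic), -0.40 to -0.22 (transport) and -0.34 to -0.21 (other). The log2 change of KIF21A ran from -0.092 without siKLF11 replicate 1 to 0.35 without replicate 2, and that of KIF5B from -0.013 without replicate 2 to 0.28 without replicate 1, neither called. No alternative called a mitotic kinesin lower.

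With no filter on low values, 887 genes were called higher and 1251 lower, 3 mitotic kinesins higher, 0 transport kinesins higher and 1 lower, and 1 other kinesin lower, with medians of 0.40 (mitotic) and -0.48 (other); more genes were then tested. A filter at a mean of 5 FPKM left 1 other kinesin called higher and 1 lower (median -0.18). Median-of-ratios scaling and quantile normalization each called 3 transport kinesins lower, and 1 other kinesin higher and 1 lower. Their medians were 0.62 and 0.61 (mitotic), -0.21 and -0.22 (transport) and -0.17 and -0.099 (other), and KIF9 turned to 0.032 and 0.12, not called. TPM scaling put the other kinesins' median at -0.33, and at -0.34 without mitochondrial genes. A pseudocount of 0.1 called 1 other kinesin lower (median -0.31), and a pseudocount of 5 gave medians of 0.41 (mitotic) and -0.14 (other). Without a variance trend 0 transport kinesins were called higher. Over all genes, the filter at 5 FPKM called 1704 higher and 2558 lower of 10441 tested. Of 15320 tested, quantile normalization called 2657 higher and 2664 lower. The pseudocount of 0.1 called 2017 and 3178, and the fit without a trend 1771 and 3042. Counting KIF2A as mitotic gave the others a median of -0.48. The cause of these shifts was not tested.

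With the replicate block, 4 mitotic kinesins were called higher, 0 transport kinesins higher and 3 lower, and 1 other kinesin lower. Of all 15320 tested genes, 1707 were then called higher and 2644 lower, against 2071 and 3329 without the block. Same-numbered libraries did not deviate together (r = -0.07 across genes, which are not independent replicates). That value cannot tell whether they shared a culture or a batch, which is not stated.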

Other observations

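Cytoplasmic dynein, the motor that walks against most kinesins, was read from 24 genes of dynein, dynactin and their adaptors. Of these 9 fell and 0 rose (0 at an unadjusted p under 0.05 in limma), where 21.7% of all tested genes fell and 13.5% rose, with a median log2 change of -0.29, beside -0.11 for all tested genes. Median-of-ratios scaling called 6 of them lower and 1 higher, with a median of -0.18. HOOK2, a dynein adaptor, had 32.1 and 26.7 FPKM with siNC and 6.07 and 8.98 FPKM with siKLF11 (log2 change -1.85, adjusted p = 0.00499, limma). The light chain DYNLRB1 fell from 152 and 142 to 79.6 and 93.5 FPKM (limma, adjusted p = 0.00827). DYNC1I2, an intermediate chain that links the motor to cargo, fell from 93.0 and 98.3 to 66.2 and 69.0 FPKM (limma, adjusted p = 0.012). The dynactin subunit DCTN2 fell from 92.1 and 98.8 to 61.1 and 68.5 FPKM (limma, adjusted p = 0.0135). The heavy chain DYNC1H1, named after its values were seen, had 82.0 and 66.6 against 65.6 and 66.1 FPKM and did not pass (limma, adjusted p = 0.331).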
